A study of Mus musculus with 14 samples.

Results

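The 22 genes described here were chosen from the differentiation time course of Ocy454 cells, a mouse line with osteocyte-like properties. A gene was taken when its mean at day 14, as CPM (reads of a gene per 1000000 reads of its library) plus 1, was at least 2 times that of each of days 1, 7 and 10, when day 10 was not below day 7, and when the day 14 mean was at least 5 CPM. Of 39179 genes in the table, 10313 had a day 14 mean of at least 5 CPM, and 22 of these met all conditions. Collagen chain genes were left out by the rule, as were Sost and Itgb3, which met the other conditions. The working name of the group, genes switched on only by day 14, held in part. At day 10, 16 of the 22 genes already stood at 2 times their day 1 level or more, and 13 did so at day 7. They are therefore called late genes below, by the step that chose them, and not genes silent until day 14.

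The line is immortalized by a large T antigen that is lost at higher temperature, and differentiation was started by warming the cultures. No allele, transgene or drug distinguished the groups, which were all wild-type cultures of this 1 line on tissue culture plastic. The differentiation experiment held 8 libraries, with 2 biologic replicates for every time point (days 1, 7, 10 and 14 in the warmed culture). The sorting experiment held 6 libraries of live cells at day 17, 3 from the 10% of cells with the highest surface CD61 (CD61high) and 3 from the 10% with the lowest (CD61low). Day 17 is the day given in the study's methods, while its results text gives a different day. CD61 is integrin beta 3, the product of Itgb3, and its surface level was used as a readout of maturation. The study's methods describe the sorted replicates as 3 independent groups of cells, without saying whether these were separate differentiations, so the p-values measure the spread between these samples.

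Osteocytes form when osteoblasts become embedded in the matrix they secrete, extend long dendrites through canals in the bone and come to govern bone formation and resorption through secreted and surface signals. The genes that mark them appear in stages, some with matrix production and some only in the most mature cells. The late genes were not a single pathway. They encode secreted and membrane-bound ligands, receptors and adhesion proteins, transporters and a channel, intracellular signalling proteins, 2 zinc finger transcription factors, and enzymes.

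The time course libraries held 27518605 to 34311238 reads and the sorted libraries 18815602 to 19220064 estimated counts. Itgb3, the target of the sort, had 5.31 to 6.10 CPM in CD61low cells and 100.1 to 130.1 in CD61high cells. Of the 16 genes listed as osteocyte markers, the sum over those measured was 459 CPM (day 1), 920.0 (day 7), 775 (day 10) and 1249 (day 14). Dmp1, which encodes a matrix protein of osteocytes, had 54.9 CPM at day 14 and Phex, a membrane endopeptidase of phosphate control, 93.9, while Fgf23, the osteocyte hormone that controls phosphate, was at 0 in all 8 libraries and Mepe, another osteocyte matrix gene, reached only 0.411. One late gene, Ptprz1, is in that marker list.

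Promoter sequence was read for the late genes because a group chosen for a shared step might share a motif. The window was the 250 bases before the start of each gene's canonical transcript in GENCODE M39, on the GRCm39 genome. That transcript held the most counts in the sorted libraries for 14 late genes. For the other 8 the transcript with the most counts began at or within 250 bases of the same start, as in Rufy4 (5 bases away), except in Lypd1 (2026 bases) and Prickle2 (138868 bases), whose windows are therefore not those of their main transcript. The 3 promoters that held an AP-1 motif or a CArG box are shown 5′ to 3′ on the gene's own strand. Promoters with other searched motifs, such as the hypoxia response core, are not shown. The CArG box was added to the search after the values were seen. In Tgfa (chr6:86171791-86172040, plus strand) and Rufy4 (chr1:74164445-74164694, plus strand) the capitals mark a match to the AP-1 motif, the site bound by Fos and Jun dimers. In Egr2 (chr10:67373442-67373691, plus strand) they mark a CArG box, the site of serum response factor.
Tgfa: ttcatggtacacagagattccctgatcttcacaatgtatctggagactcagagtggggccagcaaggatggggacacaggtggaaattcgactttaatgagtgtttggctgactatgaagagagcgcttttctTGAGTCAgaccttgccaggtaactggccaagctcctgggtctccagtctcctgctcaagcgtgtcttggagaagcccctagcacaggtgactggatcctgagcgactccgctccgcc
Rufy4: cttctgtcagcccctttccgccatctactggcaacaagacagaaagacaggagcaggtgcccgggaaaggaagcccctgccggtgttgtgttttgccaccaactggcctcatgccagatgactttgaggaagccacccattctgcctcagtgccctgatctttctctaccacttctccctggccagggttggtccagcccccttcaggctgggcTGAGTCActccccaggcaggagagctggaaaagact
Egr2: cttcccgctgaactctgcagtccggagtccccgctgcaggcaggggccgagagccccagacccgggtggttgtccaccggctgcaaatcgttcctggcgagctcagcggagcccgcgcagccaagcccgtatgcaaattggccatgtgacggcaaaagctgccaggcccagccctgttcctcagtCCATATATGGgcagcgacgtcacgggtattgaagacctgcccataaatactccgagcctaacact

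The AP-1 motif (TGANTCA) was in 2 of 22 late gene promoters, or 9.09%, against 6.17% of all 21770 protein-coding promoters, at -117 to -111 from the start in Tgfa and -36 to -30 in Rufy4. The Tgfa match overlaps a SMAD core (CAGAC, read on either strand) at -112 to -108, and that core was in 31.8% of the late promoters against 41.3% of all. The hypoxia response core (ACGTG) was in Prickle2 and Zdhhc14 only, which is 9.09% against 17.0%. A CArG box stood at -65 to -56 in Egr2 alone, 4.55% against 1.40% of all promoters. The RUNX core (TGTGGT) was in Apln alone (13.0% of all promoters), the TATA box (TATAAA) in Cyp26b1 alone (11.9%), at -20 to -15, and the TEAD core (CATTCC) in 4.55% against 12.1%. The E-box (CANNTG), in 54.5% against 64.8%, and the NF-kB motif, in 13.6% against 18.2%, complete the set. The cAMP response element (TGACGTCA) and the EGR motif (GCGTGGGCG) matched no late promoter in this window, where 1.69% and 0.547% of all promoters held them. All motifs were searched on both strands. The median promoter held 11 CpG dinucleotides among the late genes, 8 among all genes and 14 among genes with at least 5 CPM at day 14. These counts describe letters in 1 short window and say nothing of binding.

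The values of the days chose the genes, so they are given as a description without a test. At day 14 the late genes ranged from 5.21 CPM (Ip6k3) to 296 CPM (Tgfa) with a median of 24.7. The ratio of day 14 to the highest earlier day, on CPM plus 1, ranged from 2.10 to 3.83 with a median of 2.45. For 21 genes the highest earlier day was day 10, and for Cyp26b1 it was day 1. Between day 1 and day 14, the share of the gain in mean CPM that came after day 10 was 57.8% at the least, 69.2% at the median and 114% at the most, above 100% because Cyp26b1 had first gone down. In every late gene both day 14 libraries lay above all 6 earlier libraries, which was true of 18.9% of the 12725 genes with a CPM above 1 in any library. All 22 were also called higher at day 14 than at day 10 by limma, against 2.09% of those genes, and nothing is read from either count because the rule used that step.

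**Figure D1:**
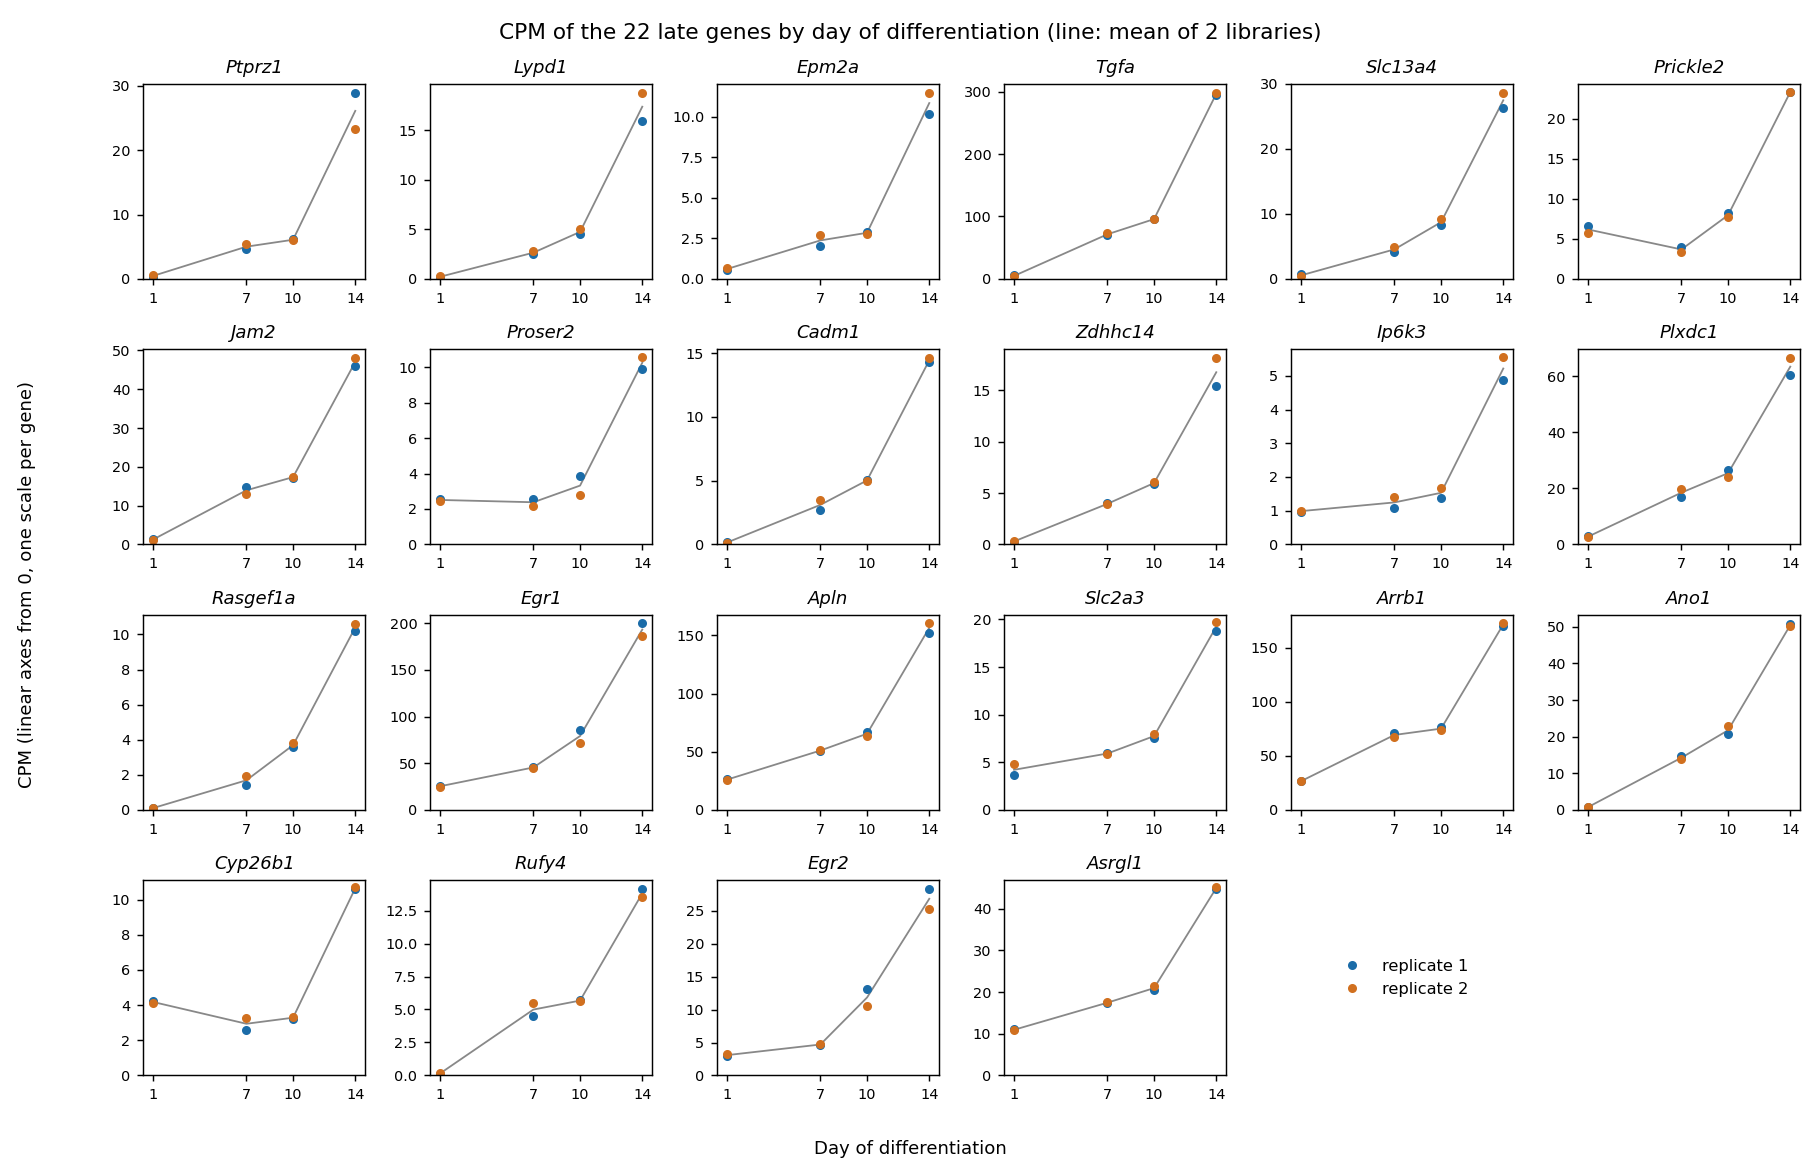
CPM (linear axes from 0, a separate scale for each gene) against day of differentiation for the 22 late genes, with the 2 libraries of each day as points and their mean as a line. In most panels the last segment is the steepest, yet 16 genes had at least doubled by day 10, and Prickle2 and Cyp26b1 dipped at day 7.

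Closest inside the limit of 2 were Asrgl1 with a ratio of 2.096, Egr2 with 2.169 and Rufy4 with 2.218. Just outside were Slc26a7, an anion exchanger, with 1.998, Dixdc1, a Wnt pathway protein, with 1.994, and Klhdc1, a kelch domain protein, with 1.991. Applied to replicate 1 alone the rule took 33 genes and to replicate 2 alone 29, and 21 genes were in both, 63.6% and 72.4% of the lists. Replicate 2 alone gave all 22 late genes, and replicate 1 missed Ip6k3 only. A larger set lay beyond the condition on day 10. There were 64 genes that met every other condition but had day 10 below day 7, among them the HIF targets Ak4, Bnip3, Egln1, Egln3, Mxi1, Ndrg1 and Slc2a1 and the osteocyte markers Ackr3 and Phex. Of the late genes, Slc2a3 was the only listed HIF target.

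The sort did not choose the genes and can be tested. CD61high and CD61low cells were compared with edgeR's quasi-likelihood test over 12077 genes, and calls required an adjusted p under 0.01 together with a Log2FC (log2 fold change, CD61high over CD61low) beyond 1 in either direction. All 22 late genes passed the filter of at least 5 normalized counts in all 6 libraries. Of these, 15 were higher in CD61high cells (68.2%), against 4.84% of all genes tested, and 7 were not called. None was lower (4.37% of all genes). The count of lower late genes was also 0 at an unadjusted p below 0.05 and 0 with DESeq2. The shares of all genes at those settings are not given here, so nothing is read from these counts. The median Log2FC of the late genes was 1.37, with a range from -0.13 to 2.23, beside 0.00 over all genes. In 19 of them (86.4%) all 3 CD61high libraries lay above all 3 CD61low libraries, which held for 29.6% of all genes. Genes that had also at least doubled from day 1 to day 14, but did not meet the 2-fold step at day 14, numbered 689, and of the 666 tested 260 were called higher (39.0%) and 7 lower, with a median of 0.84. The 64 genes with a dip at day 10 gave 41 higher of 62 tested (66.1%), 0 lower with edgeR and a median of 1.21. All 3 CD61high libraries lay above all 3 CD61low libraries in 82.4% of those 666 genes and 93.5% of those 62. These shares are descriptions of lists chosen with earlier results known. In bulk RNA, fewer cells of a kind and less RNA per cell cannot be told apart.

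**Figure D2:**
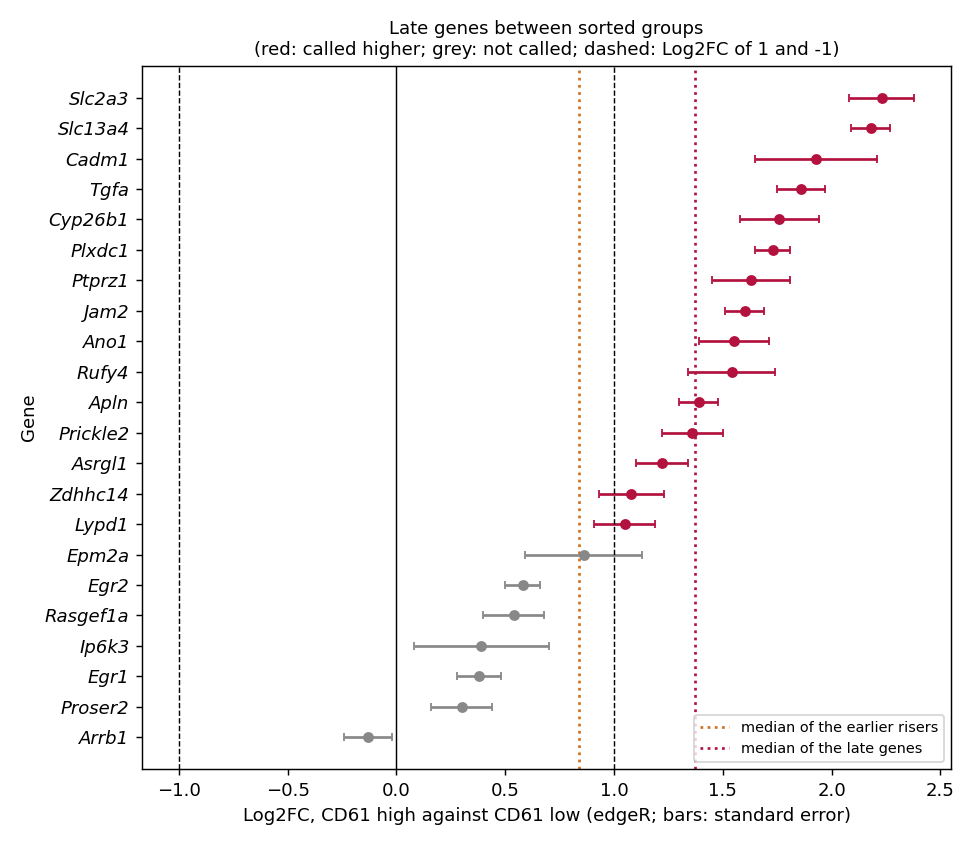
Log2FC between CD61high and CD61low cells with its standard error for each late gene, largest at the top; red points were called higher and grey points were not. Slc2a3 (2.23) and Slc13a4 (2.18) lead, 15 genes are above 1, and Arrb1 (-0.13) is the only one below 0.

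Among the late genes that act at the cell surface, the ligand Tgfa had the highest level. It encodes transforming growth factor alpha, which is shed from the membrane and activates the epidermal growth factor receptor. Its CPM was 5.43 and 4.17 in the day 1 libraries, 70.0 and 72.8 (day 7), 95.6 and 95.9 (day 10) and 295 and 298 (day 14). The replicates almost coincided from day 7 on, and the step from day 10 to day 14 was larger than the whole level before it. In the sort Tgfa had 115, 99.5 and 129 CPM in CD61low cells and 457, 378 and 411 in CD61high cells. The groups were far apart, with a Log2FC of 1.86 ± 0.11 (SE) and an adjusted p of 6.4e-07. A single transcript took at least 99.6% of the gene's counts in every sorted library. Per length Tgfa was also the most abundant late gene, at 232 TPM (here CPM divided by gene length and rescaled) at day 14, ahead of Apln at 165 and Egr1 at 127.

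The receptor of this ligand went the other way. Egfr had 30.9 and 27.5 CPM at day 1, 13.7 and 10.1 at day 7, 15.5 in both day 10 libraries, and 9.09 and 10.7 at day 14. In sorted cells it was lower in the CD61high group, with 8.45, 6.56 and 6.82 CPM against 18.9, 21.5 and 23.1 (Log2FC -1.54 ± 0.13, adjusted p 8.9e-06). Hbegf, a second ligand of the receptor, was at 4.37 CPM on average at day 1 and 3.32 at day 14, and was also lower in CD61high cells (Log2FC -1.63 ± 0.24, adjusted p 2.6e-04). Egf reached only 1.73 CPM at day 14, and Areg, Ereg, Btc and Epgn were each at 0.200 or less. At days 7, 10 and 14 Tgfa was the one listed ligand of the receptor above 5 CPM, while at day 1 its mean (4.80 CPM) was close to that of Hbegf. Adam17, the protease that sheds it, was at 77.1 CPM at day 1 and 111 at day 14 and was not called in the sort (Log2FC 0.49 ± 0.08).

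Apln encodes apelin, a secreted peptide that signals through the receptor Aplnr. It was never silent: 26.5 and 25.6 CPM at day 1 were followed by 50.3 and 51.8 (day 7), 67.1 and 63.9 (day 10) and 152 and 161 (day 14). CD61low cells had 79.1, 64.7 and 80.6 CPM and CD61high cells 197, 196 and 196, a Log2FC of 1.39 ± 0.09 (adjusted p 1.2e-06). In CPM the CD61high replicates were almost equal and stood above day 14. Per length the direction turned, with 96.8 TPM in CD61high cells against 165 at day 14. Aplnr itself did not exceed 0.0528 CPM as the mean of any day.

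Ptprz1 encodes a receptor-type tyrosine phosphatase of the chondroitin sulfate proteoglycan family, known in neural cells and in osteocytes. It had the largest ratio of the group, 3.83. Its CPM was 0.266 and 0.659 at day 1, 4.62 and 5.39 (day 7), 6.17 and 5.99 (day 10) and 28.9 and 23.3 (day 14). The day 7 and day 10 libraries differed little from each other, so its course was a plateau followed by a step. CD61high cells had 25.2, 17.0 and 21.1 CPM and CD61low cells 5.93, 6.05 and 8.54, with a Log2FC of 1.63 ± 0.18 (adjusted p 4.6e-05). Most of its counts, 72.8% to 88.0% in the 6 sorted libraries, were assigned to a transcript of 4947 bases and 10.2% to 21.0% to a transcript of 8068 bases. Ptn, which encodes its ligand pleiotrophin, was at 98.8 CPM at day 1, 24.9 (day 7), 12.2 (day 10) and 14.5 (day 14). It was lower in CD61high cells (Log2FC -1.58 ± 0.16, adjusted p 1.9e-05), so this receptor and ligand pair had opposite directions in the sort, as Tgfa and Egfr did.

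Jam2, Plxdc1, Cadm1 and Lypd1 encode adhesion and other surface proteins. Jam2, a junctional adhesion molecule, had 1.30 and 1.22 CPM at day 1, 14.9 and 13.0 (day 7), 17.2 and 17.5 (day 10) and 46.1 and 48.0 (day 14). The sorted levels were 14.4, 14.0 and 16.1 CPM in CD61low cells and 46.0, 42.9 and 46.0 in CD61high cells (Log2FC 1.60 ± 0.09, adjusted p 5.7e-07). In CPM the former lay below both day 10 libraries and the latter near day 14. Per length, CD61high cells had 18.1 TPM against 34.4 at day 14. Jam2 overlaps Atp5pf, a gene of the mitochondrial ATP synthase at 141 CPM on day 14, on the opposite strand, and the sources used here do not state whether counting used strand. Plxdc1, a plexin domain protein, had 2.92 and 2.63 CPM at day 1, 17.0 and 19.9 (day 7), 26.6 and 24.2 (day 10) and 60.3 and 66.4 (day 14). Its sorted levels were 18.9, 18.5 and 17.7 against 64.8, 58.8 and 59.8 (Log2FC 1.73 ± 0.08, adjusted p 2.7e-07). The paralog Plxdc2 had the reverse pattern, with 119 CPM at day 1 and 43.3 at day 14 and a lower level in CD61high cells (Log2FC -1.48 ± 0.10, adjusted p 1.4e-06).

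Cadm1, an immunoglobulin-type cell adhesion molecule, was near 0 at day 1 (0.177 and 0.125 CPM). It had 2.73 and 3.48 (day 7), 5.09 and 4.96 (day 10) and 14.3 and 14.6 (day 14). In the sort both groups were below day 14, with 1.15, 1.27 and 2.10 CPM in CD61low cells and 6.63, 4.20 and 6.41 in CD61high cells (Log2FC 1.93 ± 0.28, adjusted p 2.6e-04). Lypd1, a lipid-anchored protein of the Ly6 family, had the next largest ratio after Ptprz1, 3.20. Its day 1 values of 0.177 and 0.251 CPM went to 2.52 and 2.78 (day 7), a mean of 4.75 (day 10) and 16.0 and 18.8 (day 14). CD61low cells at 16.0, 10.7 and 13.9 CPM were close to day 14 already, and CD61high cells were higher still at 29.7, 26.5 and 28.2. Its Log2FC of 1.05 ± 0.14 (adjusted p 1.3e-04) was just past the limit. The call was lost without CD61low replicate 2 (0.90) and with scaling by library size alone (0.75).

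The 3 transport genes were all higher in CD61high cells, and 2 of them had the largest differences of the group. Slc13a4 encodes a sodium-dependent sulfate transporter. Its CPM was 0.679 and 0.408 at day 1, 4.14 and 4.93 (day 7), 8.24 and 9.19 (day 10) and 26.3 and 28.6 (day 14). CD61low cells held 13.3, 11.8 and 14.5 and CD61high cells 59.6, 59.9 and 60.1, above every day of the time course (Log2FC 2.18 ± 0.09, adjusted p 2.0e-07). Its family member Slc13a5, a citrate transporter, came on early instead, at 313 CPM by day 7, 153 at day 10 and 274 at day 14. Slc2a3 encodes the glucose transporter GLUT3. It had 3.63 and 4.80 CPM at day 1, 5.94 and 5.91 (day 7), 7.58 and 7.93 (day 10) and 18.8 and 19.7 (day 14). The sorted groups were further apart than for any other late gene, 2.97, 3.14 and 2.73 CPM against 14.3, 15.0 and 12.4 (Log2FC 2.23 ± 0.15, adjusted p 1.4e-06), and the CD61low level was below that of day 1. Slc2a1, the glucose transporter GLUT1, stood at 398 CPM at day 14 and was higher in CD61high cells too (Log2FC 1.01 ± 0.09, adjusted p 1.3e-05). It missed the rule because day 10 (102 CPM) lay below day 7 (143 CPM). Ano1, a calcium-activated chloride channel, went from 0.767 and 0.784 CPM at day 1 to 14.7 and 13.8 (day 7), 20.7 and 22.8 (day 10) and 50.8 and 50.1 (day 14). It had the smallest share of its gain after day 10, 57.8%. CD61low cells had 9.28, 7.69 and 11.9 CPM and CD61high cells 30.6, 23.8 and 29.8 (Log2FC 1.55 ± 0.16, adjusted p 2.7e-05).

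**Figure D3:**
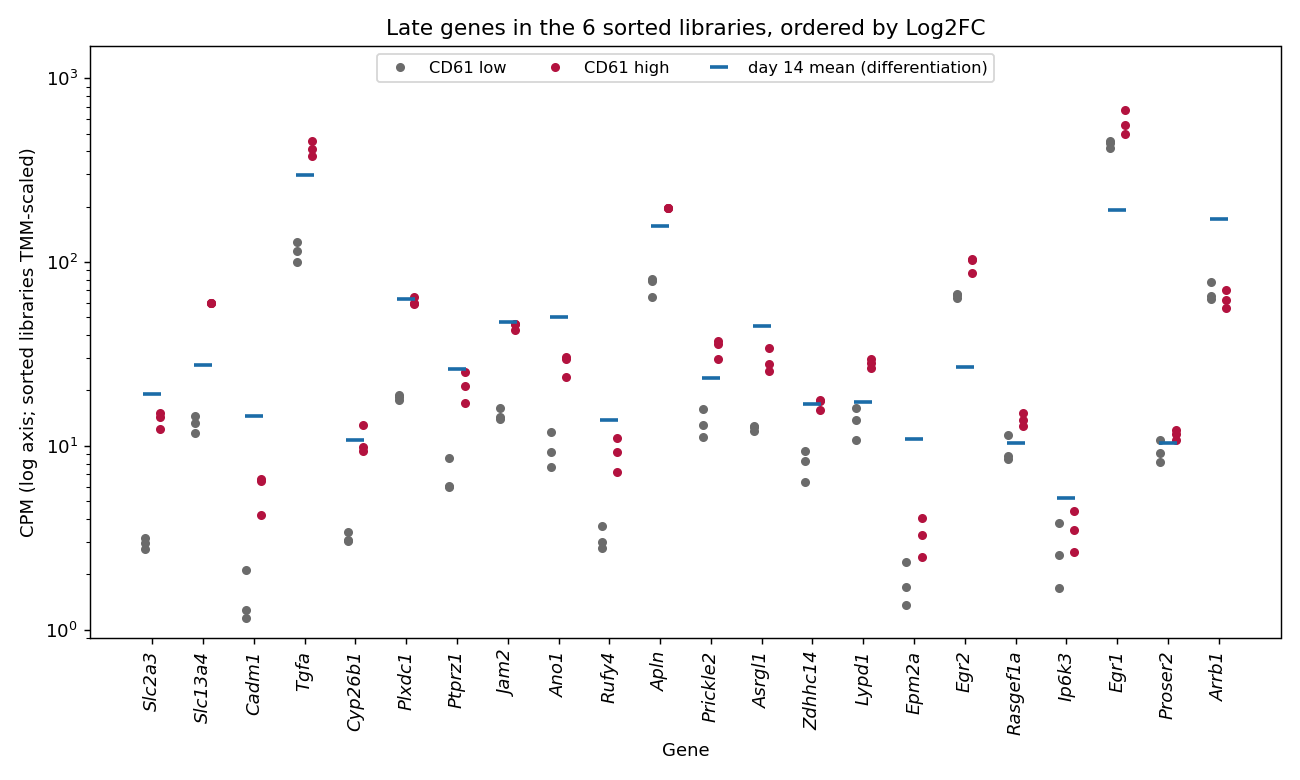
CPM on a log axis for each late gene in the 3 CD61low (grey) and 3 CD61high (red) libraries, with the day 14 mean of the time course as a blue bar, genes ordered by Log2FC. The grey and red points are separate in 19 genes and overlap in Ip6k3, Proser2 and Arrb1; Egr1 and Egr2 lie above their day 14 bar in both groups.

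Signalling proteins inside the cell were divided between called and not called. Prickle2, a component of planar cell polarity, was 1 of 3 genes with a lower mean at day 7 than at day 1. Its libraries had 6.64 and 5.71 CPM at day 1, 4.02 and 3.34 (day 7), 8.18 and 7.74 (day 10) and 23.3 and 23.4 (day 14). CD61high cells (37.4, 29.8 and 35.6 CPM) were above CD61low cells (11.2, 13.0 and 15.9), with a Log2FC of 1.36 ± 0.14 and an adjusted p of 2.4e-05. Prickle3 was also higher in CD61high cells (Log2FC 1.09 ± 0.13, adjusted p 8.2e-05), and Prickle1, with a Log2FC of 0.98, fell just short. Zdhhc14, a palmitoyltransferase, had 0.207 and 0.376 CPM at day 1, 3.99 and 3.91 (day 7), 5.88 and 6.06 (day 10) and 15.4 and 18.1 (day 14). In sorted cells it had 8.28, 6.38 and 9.37 CPM against 17.7, 15.7 and 17.5 (Log2FC 1.08 ± 0.15, adjusted p 1.8e-04), and the call was lost without CD61low replicate 2 (0.93) and with scaling by library size alone (0.78). Rufy4, a RUN and FYVE domain protein with a role in autophagy, went from 0.118 and 0.188 CPM at day 1 to 4.50 and 5.49 (day 7), 5.71 and 5.64 (day 10) and 14.1 and 13.5 (day 14). Its sorted values were 3.64, 3.00 and 2.78 CPM in CD61low cells against a CD61high mean of 9.13 ± 1.89 (SD, n = 3), with all CD61high libraries at 7.20 or above (Log2FC 1.54 ± 0.20, adjusted p 1.2e-04). None of Rufy1, Rufy2 and Rufy3 was called.

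Arrb1 and Rasgef1a had a clear late step in the time course without a call in the sort. Arrb1 encodes beta-arrestin 1, which binds activated G protein-coupled receptors and ends or redirects their signalling. It was abundant at every day: 26.5 and 26.7 CPM at day 1, 70.9 and 67.6 (day 7), 76.5 and 73.7 (day 10) and 169.7 and 173 (day 14). In the sort its libraries overlapped, at 65.3, 63.1 and 77.9 CPM in CD61low cells and 70.1, 56.3 and 62.1 in CD61high cells (Log2FC -0.13 ± 0.11, adjusted p 0.33), and all 6 were below day 14. Pth1r and Ackr3, receptors that bind arrestins and are known in osteocytes, were both higher in CD61high cells (Log2FC 1.90 ± 0.09 and 1.60 ± 0.14, adjusted p 2.6e-07 and 7.7e-06), and Arrb2 stayed between 30.8 and 33.3 CPM as the mean of each day. Rasgef1a, an exchange factor for small GTPases, had 0.118 and 0.0941 CPM at day 1, 1.44 and 1.94 (day 7), 3.58 and 3.80 (day 10) and 10.2 and 10.6 (day 14). Its CD61low libraries (8.52, 8.82 and 11.4 CPM) lay below its CD61high libraries (13.8, 12.8 and 15.1), but the Log2FC of 0.54 ± 0.14 (adjusted p 0.0096) did not reach 1.

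Egr1 and Egr2 encode zinc finger transcription factors of the immediate early class, genes that are switched on within minutes of a growth factor or mechanical stimulus. Egr1 had 25.9 and 24.8 CPM at day 1, 45.6 and 45.4 (day 7), 86.1 and 72.2 (day 10) and 200.3 and 186 (day 14). Egr2 had 2.95 and 3.23 at day 1, 4.59 and 4.82 (day 7), 13.1 and 10.6 (day 10) and 28.4 and 25.3 (day 14). Of the late genes, Egr2 had the largest step from day 7 to day 10, 2.25-fold on CPM plus 1, so its course was a steady climb. In sorted cells both genes stood above their day 14 level whichever the group. Egr1 had 447, 419 and 455 CPM in CD61low cells and 670.2, 495 and 558 in CD61high cells, and Egr2 had 64.0, 66.6 and 66.0 against 104, 102 and 87.6. The groups did not overlap for either gene, yet neither reached a Log2FC of 1 (0.38 ± 0.10 with an adjusted p of 0.011, and 0.58 ± 0.08 with 2.1e-04). In CPM, Egr1 and Egr2 were the only 2 late genes whose CD61low mean exceeded the day 14 mean. Per length, Lypd1 exceeded it too (13.6 TPM in CD61low cells against 6.92 at day 14).

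Several other immediate early genes also had higher levels in sorted cells than at day 14. Fos was at 9.11 CPM at day 14 against means of 198 in CD61low and 457 in CD61high cells, Fosb at 9.82 against 73.4 and 236, and Junb at 124 against 424 and 732. Of the 21 genes in the immediate early list, 11 had both sorted means above the day 14 mean (52.4%), against 31.2% of the 11843 genes that passed the filter and are also in the time course table. Egr1 and Egr2 are counted in both the 21 and the 11. Sorted cells were dissociated, stained, passed through a sorter and extracted with another kit at another day. Their reads were also quantified and scaled differently, so both shares hold for CPM only. The part of these steps in the levels was not tested. Between the sorted groups 5 of the 21 were called higher (Fos, Fosb, Nr4a1, Ier3 and Klf2) and 1 lower (Atf3), beside 4.84% and 4.37% of all genes tested. In the time course Egr3 ran beside its family members at 1.90, 2.70, 8.61 and 17.6 CPM for the means of the 4 days, and missed the limit with a ratio of 1.94. Unlike Egr1 and Egr2, its CD61low mean (14.6 CPM) was below day 14, while its CD61high mean was 27.1. Srf, the factor that binds CArG boxes, was at 132, 117, 129 and 189 CPM.

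**Figure D4:**
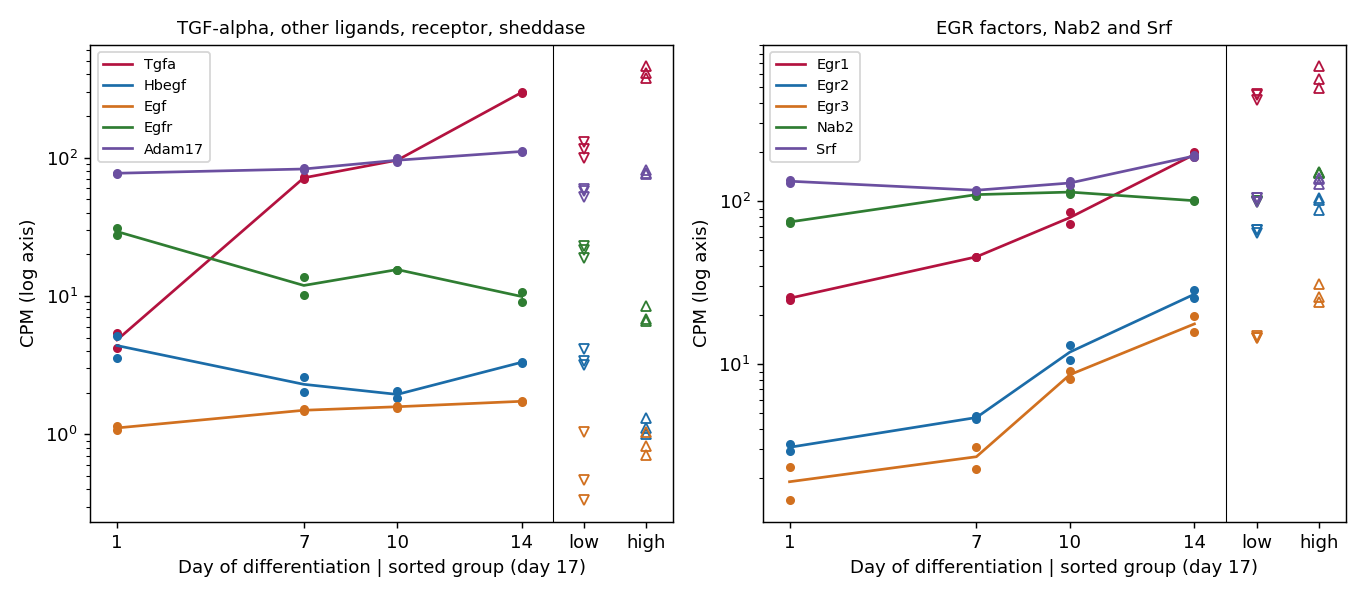
CPM on a log axis by day, with points for the 2 libraries of each day and lines for their mean, and to the right of the vertical rule the 3 CD61low (downward triangles) and 3 CD61high (upward triangles) libraries at day 17. On the left Tgfa goes from 4.80 to 296 CPM while Egfr goes from 29.2 to 9.91; on the right Egr1, Egr2 and Egr3 climb together, and Egr1 and Egr2 are higher in both sorted groups than at day 14.

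The enzymes were the most varied of the late genes. Cyp26b1 encodes a cytochrome P450 that degrades retinoic acid. Its CPM was 4.22 and 4.14 at day 1, 2.61 and 3.27 (day 7), 3.22 and 3.35 (day 10) and 10.6 and 10.7 (day 14), so it was first lower and then higher than at the start. In CPM, CD61low cells at 3.40, 3.05 and 3.08 resembled the earlier days, and CD61high cells at 13.0, 9.33 and 9.88 resembled day 14 (Log2FC 1.76 ± 0.18, adjusted p 2.1e-05). Per length CD61low cells had 1.36 TPM and CD61high cells 3.74, against 2.98 at day 1 and 7.29 at day 14. Of the retinoic acid synthesis genes, Aldh1a3 reached 2.64 CPM at day 14, and Aldh1a1 and Aldh1a2 were at 0 there. Asrgl1, an asparaginase-like enzyme, had 11.1 and 10.8 CPM at day 1, 17.3 and 17.6 (day 7), 20.5 and 21.4 (day 10) and 44.8 and 45.1 (day 14). Its sorted libraries had 12.8, 12.7 and 12.0 CPM against 34.1, 27.8 and 25.5 (Log2FC 1.22 ± 0.12, adjusted p 2.1e-05), and with scaling by library size alone the value was 0.92 and the call was lost. Epm2a encodes laforin, a phosphatase that keeps glycogen soluble. It had 0.531 and 0.690 CPM at day 1, 2.04 and 2.71 (day 7), 2.89 and 2.80 (day 10) and 10.2 and 11.5 (day 14), the third largest ratio (3.09). The sorted values were low, 2.34, 1.36 and 1.71 CPM against 4.05, 3.28 and 2.47, and did not overlap, but at a Log2FC of 0.86 ± 0.27 and an adjusted p of 0.025 it was not called. The other 4 listed glycogen genes were divided. From day 10 to day 14, Gys1, the glycogen synthase, went from 50.3 to 154 CPM and Gbe1, the branching enzyme, from 35.6 to 126, while Ppp1r3c, a glycogen targeting subunit, went from 16.6 to 9.54 and Nhlrc1, the ubiquitin ligase that works with laforin, from 0.179 to 0.255.

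Ip6k3 and Proser2 completed the group. Ip6k3, an inositol hexakisphosphate kinase, had the lowest level of the group at days 7, 10 and 14, with 0.974 and 1.00 CPM at day 1, 1.08 and 1.41 (day 7), 1.38 and 1.68 (day 10) and 4.87 and 5.56 (day 14). The sorted groups overlapped at 2.54, 1.69 and 3.81 CPM against 4.40, 2.65 and 3.47 (Log2FC 0.39 ± 0.31, adjusted p 0.31). Proser2, a proline and serine rich protein of little known function, had 2.57 and 2.45 CPM at day 1, 2.58 and 2.18 (day 7), 3.87 and 2.77 (day 10) and 9.91 and 10.6 (day 14). It was nearly flat until day 10, and its sorted groups met at 10.7 CPM (10.7, 9.15 and 8.20 against 10.7, 11.6 and 12.2, Log2FC 0.30 ± 0.14, adjusted p 0.093). For these genes and the other 5 not called, a p above the threshold or a Log2FC under 1 does not show that the groups were alike.

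The sorted means could be set beside the days only as a description, since day, kit and quantification all differed. The CD61low mean was below the day 10 mean for 10 late genes, and the CD61high mean was above the day 14 mean for 11, of which Cyp26b1 was level with it to 3 digits. Both counts are in CPM and depend on that unit. By TPM, computed differently for sorted cells and days, CD61high cells were above day 14 only for Lypd1, Slc13a4, Prickle2, Egr1 and Egr2. Tgfa turned, with 149.6 TPM in CD61high cells against 232 at day 14. Among 47 paralogs and other ligands of the same receptors in the table, 22 had a day 14 mean of at least 5 CPM, and 1 (Slc2a1) was at least 2 times every earlier day. Of the 25 relatives tested in the sort 2 were called higher (Slc2a1 and Prickle3) and 2 lower (Hbegf and Plxdc2), beside 4.84% and 4.37% of all genes. The relatives were listed after the late genes were known, and with earlier results of these data known.

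Position in the genome was uneven. Of the 22 late genes 7 lie on chromosome 6 (31.8%), namely Ptprz1, Slc13a4, Cyp26b1, Tgfa, Prickle2, Rasgef1a and Slc2a3, against 5.01% of genes with at least 5 CPM at day 14 and 7.20% of the 681 earlier risers with a position in the annotation. Their lower coordinates on GRCm39 are 22875358 (Ptprz1), 35244890 (Slc13a4), 84548396 (Cyp26b1), 86172041 (Tgfa), 92347873 (Prickle2), 117987644 (Rasgef1a) and 122704768 (Slc2a3), so some lie far apart and others close, with 1601151 bases from Cyp26b1 to Tgfa and 4636259 from Rasgef1a to Slc2a3. The 593 genes of chromosome 6 tested in the sort had a median Log2FC of 0.35, and 11.1% of them were called higher, against 4.84% of all genes. After subtraction of that median, 6 of the 7 were still above 1 (Slc2a3 1.89, Slc13a4 1.83, Tgfa 1.52, Cyp26b1 1.41, Ptprz1 1.28 and Prickle2 1.01), and Rasgef1a was at 0.19. Among the 15 late genes elsewhere 9 were called higher (60.0%), with a median of 1.08. The 11484 genes tested on other chromosomes had a median of -0.01. The share of all genes past the same limit, after the subtraction or outside chromosome 6, is not given here. Nothing is therefore read from these counts. The part of the chromosome in the result was not tested further.

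**Figure D5:**
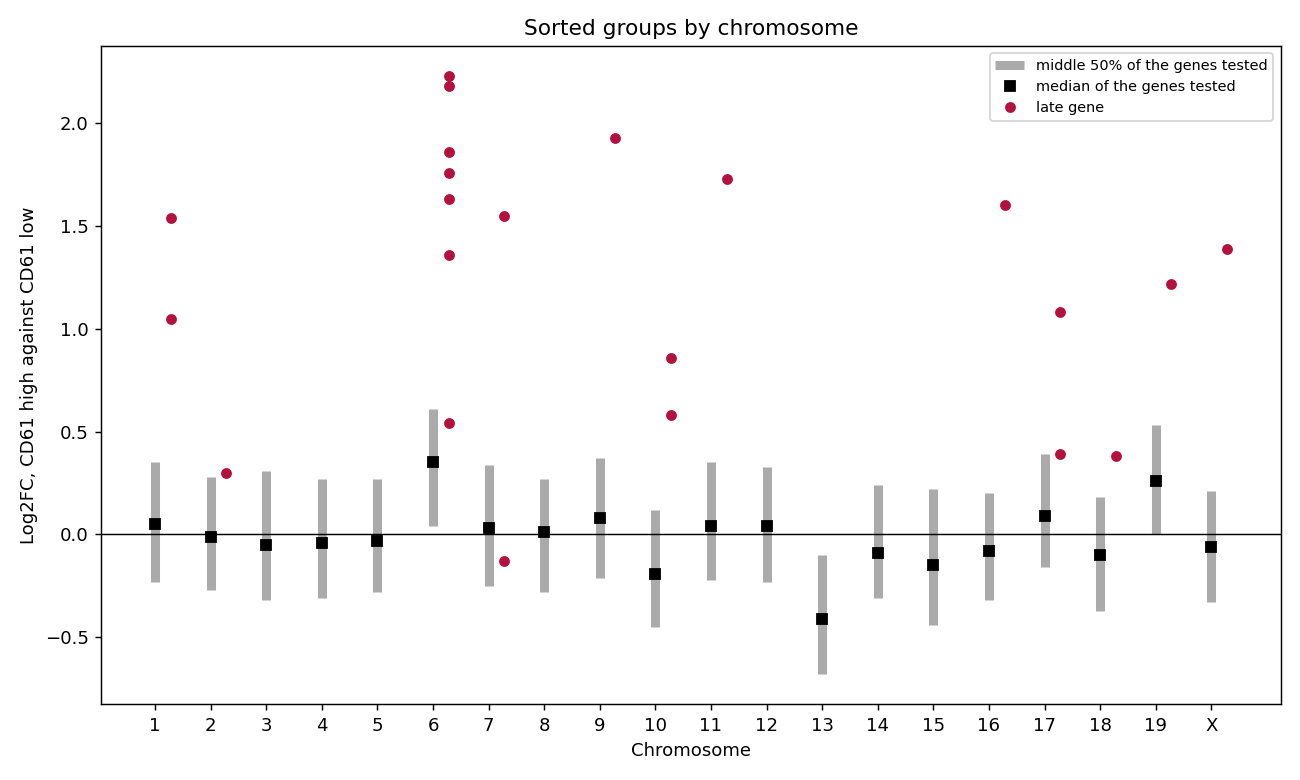
Log2FC between CD61high and CD61low cells by chromosome, with the median (black square) and middle 50% (grey bar) of the genes tested and each late gene as a red point. The median of chromosome 6 is 0.35 and that of chromosome 13 is -0.41, and 7 late genes stand on chromosome 6, of which 6 are above its grey bar.

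Markers of bone and other cell types were listed to see whether any moved with the late genes. Beside the counts of called markers below, 4.84% of all genes tested were called higher and 4.37% lower. Of the 17 osteoblast markers, 15 were called higher in CD61high cells and 1 lower, with a median Log2FC of 1.39, and their summed CPM was 7569 to 9415 in CD61low and 21712 to 22695 in CD61high libraries. Of the 10 osteocyte markers tested, 4 were called higher (Dmp1, Phex, Ackr3 and the late gene Ptprz1), with a median of 0.94 and sums of 481 to 520.5 against 885 to 929. No late gene is in the macrophage, adipocyte, chondrocyte, endothelial, muscle or neuron list. The summed CPM of the chondrocyte list was 57.2 to 75.0 in CD61low and 151 to 174 in CD61high libraries, and 3 of the 5 tested genes (Sox9, Comp and Ihh) were called higher, while Epyc was at 0 in all sorted libraries and Acan was at 5.77 and 7.34 CPM. That of the endothelial list was 20.2 to 28.7 against 82.4 to 102, of which Vwf had a mean of 18.0 and 80.3 CPM, with Emcn and Cldn5 at 0. The skeletal muscle sum was 22.4 to 23.3 against 37.2 to 49.3, mostly Acta1 (17.9 and 34.4 CPM), with Myog at 0 and none of 3 tested genes called. In the time course that sum was 9.68, 8.16, 6.48 and 30.5 CPM at days 1, 7, 10 and 14, and Acta1 went from 2.57 at day 10 to 24.0 at day 14. The smooth muscle and pericyte sum was 694 to 731 against 900.3 to 980.2, with 1 of 6 tested genes called higher. Macrophage markers summed to 36.5 to 42.7 against 32.6 to 39.6, adipocyte markers to 24.9 to 31.0 against 26.1 to 39.5, and neuron markers to 18.4 to 21.9 against 22.2 to 29.8. The part of such cells in the late genes' values was not tested.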

How the data were processed

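For the differentiation libraries, STAR alignments were counted with HTSeq by the authors, who deposited CPM values; all values were whole multiples of 1 read to within 0.01 (100% after rounding), so reads could be recovered. For the sorted libraries the authors ran Salmon on the GRCm39 transcriptome and deposited estimated counts per transcript, which were summed per gene with GENCODE M39 (115556 of 116747 transcripts matched, holding 99.3% to 99.4% of counts) and rounded. The build behind the CPM table is given only for the series as a whole, and the versions of STAR, HTSeq and Salmon are not given in the sources used here. CPM fixes each library at 1000000, so a gene's value also depends on all others. A count of 0 allows up to 3 reads (counting error only).

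Sorted groups were compared with edgeR 4.0.16 (quasi-likelihood, Benjamini-Hochberg, TMM over all genes, R 4.3.3). TMM factors were 1.1 to 1.13 in CD61low and 0.895 to 0.909 in CD61high libraries, and sorted CPM carry them. The day comparison, for background shares only, used limma 3.58.1 and log2(CPM + 1). Salmon's TPM values, deposited by the authors beside the counts, entered no test. Levels of sorted cells per length are sums of these values without TMM factors, while those of the days are CPM divided by gene length and rescaled. They serve only as a description. Alternatives used DESeq2 1.42.0, other scalings and filters, other limits of the rule, a replicate block and each library left out. Tests were tried on simulated data first. The members, gene lists and tests were chosen with earlier results of these data known; members were named in full, and other genes from lists of relatives, markers and pathways. The chromosome comparison and the CArG and EGR motifs were added after the values were seen. Figures used matplotlib 3.10.9.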

Additional observations from a re-analysis of the deposited data

How the results depend on the processing

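The late genes were called higher in 15 of 22 cases with edgeR, DESeq2, RLE size factors, TMM after the filter, no filter and filterByExpr, and 0 were called lower in each. Scaling by library size alone moved the median of all genes to -0.29. It left 12 called, with a late gene median of 1.07. Lypd1 (0.75), Zdhhc14 (0.78) and Asrgl1 (0.92) were no longer past a Log2FC of 1, and Proser2 changed sign (-0.0046). Arrb1 moved to -0.43 (edgeR, adjusted p 0.0033) and was still not called. With single libraries left out, 13 to 15 were called and the median was 1.31 to 1.44; the lowest count came without CD61low replicate 2. An adjusted p below 0.05 with no limit on Log2FC gave 19. The share of all genes at that setting is not given here, so nothing is read from this count. Outside chromosome 6, an alternative added after the data were seen, 9 were called with a median of 1.08, over fewer genes by construction. The rule gave 4 genes at a limit of 3, 105 at a limit of 1.5 and 86 with no condition on day 10, and 22 to 27 with a library left out. Genes higher and lower at day 14 than day 10 numbered 266 and 111 over the table, 425 and 246 with a pseudocount of 0.1, and 504 and 227 with edgeR on recovered reads. The cause of these shifts was not tested.

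Same-numbered sorted libraries deviated from their group means with correlations of -0.247, 0.157 and -0.0471, so no consistent deviation shared by number was seen. These values cannot show whether same-numbered libraries came from the same group of cells, which the methods do not state. With the replicate number as a block, 15 late genes were called, 0 were lower and the median was 1.38; the day comparison with the block gave 266 and 111.

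Late genes at a few CPM in sorted cells, such as Epm2a and Ip6k3, have the widest errors, and 2 libraries a day allow no firm estimate of spread in the time course.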

Other observations

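The chromosome medians of the sort were examined after the 7 late genes on chromosome 6 had been seen. Over the genes tested, the median Log2FC between CD61high and CD61low cells was 0.35 on chromosome 6 (593 genes, 78.2% above 0), 0.26 on chromosome 19 (433 genes, 74.4% above 0), -0.19 on chromosome 10 (599 genes, 33.4% above 0) and -0.41 on chromosome 13 (423 genes, 19.4% above 0). The other chromosomes lay between -0.15 and 0.09. The offset was present in every library: the median deviation of chromosome 6 genes from their mean over the 6 libraries, on log2(CPM + 1), was -0.18, -0.17 and -0.14 in CD61low and 0.17, 0.14 and 0.18 in CD61high libraries. For chromosome 13 it was 0.16, 0.20 and 0.18 against -0.16, -0.20 and -0.17. In the time course, the median log2 ratio of day 14 to day 1, on CPM plus 1, was 0.15 on chromosome 6 and -0.15 on chromosome 13, the highest and the lowest of all chromosomes, and that of day 14 to day 10 was 0.06 on chromosome 6 and -0.04 on chromosome 13. The late genes include 1 on chromosome 19 (Asrgl1), 2 on chromosome 10 (Epm2a and Egr2) and none on chromosome 13. Genes of a whole chromosome are not independent measurements, and no cause was tested.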
